A study of Gallus gallus with 9 samples.

Results

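The genes described here lie on chicken microchromosomes 25, 26, 27, 28, 30, 31, 32 and 33, which are among the smallest. By the end of the last gene, chromosomes 16 and 21 to 24, at 2.84 to 6.8 Mb, are shorter than 27 and 33, at 8.08 and 7.82 Mb, but are not included. The genes were chosen by position and level, as genes with an Ensembl identifier on these 8 chromosomes and at least 1 FPKM in at least 3 of the 9 libraries. FPKM counts sequenced fragments per kilobase of gene length, scaled to the size of the library. Of 2437 Ensembl genes listed on the 8 chromosomes, 1397 met the rule (57.3%), out of 13506 genes tested and 25016 genes in all. Another 159 genes there were predicted by the submitters and are not counted, although 116 of them reached the same level. Comparison sets below include predicted genes, and these 116 count among the other genes tested. Birds carry a few large chromosomes together with many small microchromosomes. Microchromosomes are known for dense genes, short introns, sequence rich in G and C, and early replication. The smallest of them were for long the least complete stretches of the chicken assembly.

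The thymus, where T cells mature, was taken from ROSS 308 broiler chicks at an age of 21 days. GEN chicks were given both lipopolysaccharide and genistein, a soy isoflavone that binds oestrogen receptors. LPS chicks were given lipopolysaccharide alone, a component of the outer membrane of Gram-negative bacteria that sets off innate immune responses. CON chicks had only the basic diet, and each group had 3 libraries. All 3 groups thus share breed, age and tissue, and the labels give no dose, route, duration, sex or pooling. Nothing in the labels says whether the libraries of a group came from separate animals, and the p-values thus reflect sample spread that may be technical. No gene name accompanies an identifier in the files, and 0 of the 25016 identifiers matched the reference table at hand. The labelled tissue could therefore not be checked against thymic marker genes, and no role is given to any gene below. Positions are in GRCg6a, the build of the submitters' notes, and span the whole gene, with no exons or untranslated regions marked.

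Depth ran from 19618047 to 25863282 gene fragments per library. The library CON 3 stood apart, and the main medians, counts and fold changes in comparisons with CON are given with and without it. Its correlation with the other 8 libraries, across genes on the log2(FPKM + 1) scale, was 0.877 to 0.888, whereas the other pairs gave 0.957 to 0.984. Mitochondrial genes held 3.52% to 3.82% of the summed FPKM in GEN, 2.81% to 3.35% in LPS, and 2.66%, 2.91% and 6.04% in CON 1, 2 and 3. The deposited FPKM of CON 3 were scaled by a total that was 0.767 of its gene fragments, against 1.01 to 1.09 in the other libraries, which raises all its values by 1 factor. Levels scaled instead by each library's sum of gene fragments, called fragment-sum scaling below, are given where they change a statement. Being bulk tissue, these libraries cannot separate fewer cells of a type from less RNA per cell.

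The 8 chromosomes differed widely in how much of their annotated gene content was detected. On chromosome 32, 68 of 77 genes met the rule (88.3%), and on chromosome 30, 105 of 133 did (78.9%). Chromosomes 28, 26, 27 and 25 followed with 250 of 346, 222 of 313, 253 of 418 and 206 of 358. Chromosome 33 gave 229 of 454 (50.4%) and chromosome 31 only 64 of 338 (18.9%). Gene density, counted over all listed Ensembl genes up to the end of the last gene, ran from 51.7 genes per Mb on chromosome 27 to 106 on chromosome 32, which ends at 0.724 Mb. Counted with predicted genes too, density ran from 53.5 genes per Mb on chromosome 27 to 120.2 on chromosome 32. On that count it was 34.7 on chromosomes 11 to 24 and 18.3 on chromosomes 1 to 5. The 1397 genes had a median span on the chromosome of 5.78 kb, against 12.3 kb for the other 12109 genes tested. Their median summed length was 1974 bases against 2265 bases, so the span differed far more than the measured length.

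Levels per length were higher on most of these chromosomes than elsewhere. The median over the 1397 genes of the mean FPKM of 9 libraries was 16.8, against 10.7 over the other genes tested, and 11% of them averaged at least 100 FPKM, against 5.18%. By chromosome the median level was 24.8 FPKM on 30, 21.5 on 33, 20.7 on 32, 19.8 on 28, 15.6 on 25, 14.6 on 27, 12.1 on 26 and 6.74 on 31. Chromosome 31 alone lay below the median of the other genes. Chromosomes 11 to 24 had a median of 12.5 FPKM, which lies above chromosome 26 as well, and 6.38% of their genes averaged at least 100 FPKM. All these means include CON 3, whose deposited values are raised by 1 factor. At the threshold, 46 of the 1397 genes reached 1 FPKM in exactly 3 libraries, with a median of 0.885 FPKM. A further 50 genes of these chromosomes reached it in exactly 2 libraries, with a median of 0.743 FPKM, and were left out. Of the 46 genes, 1 reached 1 FPKM in the 3 LPS libraries and in no other library, and 0 did so in GEN or CON alone. Other genes, such as ENSGALG00000050637 below, also depended on a single group to meet the rule, and these were not counted. In all 9 libraries, 1194 of the 1397 genes were at 1 FPKM or more.

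Ensembl genes that stayed under 1 FPKM in every library lay in long runs along some of these chromosomes. Predicted genes were passed over, so a predicted gene at a higher level may lie within a run. Chromosome 31 had 243 such genes, chromosome 33 had 215, chromosome 25 had 137 and chromosome 27 had 135. The longest run was on chromosome 33, where 113 successive Ensembl genes from 167477 to 2862532 stayed under 1 FPKM. Of these, 96 were listed at 0 in all 9 libraries. On chromosome 27 a run of 35 genes with a median length of 315 bases lay between 3224553 and 3436312, with 27 at 0. On chromosome 31 a run of 26 genes lay within 39.0 kb, from 2413977 to 2452980, with lengths of 291 to 401 bases and 13 at 0. On chromosome 25 a run of 32 genes lay between 2150063 and 2256808, with 5 at 0. The longest runs on chromosomes 26, 28, 30 and 32 held 7, 6, 4 and 2 genes. The sources used here do not give how fragments matching several places in the genome were counted. Whether this bears on the runs was not tested.

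The most abundant gene of each chromosome, by the mean over all 9 libraries, gave the scale of expression. That ranking includes CON 3 and favours genes high in it. How far CON 3 stands out in these 8 genes is therefore a description only. ENSGALG00000035506 on chromosome 33 (6629529 to 6630228, plus strand) measured 3146, 3119.8 and 3220.3 FPKM in GEN, 3851, 3687 and 3328 FPKM in LPS, and 3629.6, 3907 and 10403 FPKM in CON. Every GEN library lay below every LPS and CON library, and CON 3 was 2.98 times the mean of the other 8. ENSGALG00000037441 on chromosome 25 (2843844 to 2844777, plus strand) measured 2261, 2059 and 2195 FPKM in GEN, 2417, 2388 and 2261 FPKM in LPS, and 2534, 2555 and 10519 FPKM in CON. CON 3 was again far above the rest, at 4.51 times the mean of the other 8. This gene overlaps ENSGALG00000046828 on the minus strand, which measured 477 to 632 FPKM in GEN and LPS and 525 to 2261 FPKM in CON. The strand setting of the counting is not given in the sources used here, so fragments of overlapping models cannot be told apart.

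ENSGALG00000002813 on chromosome 26 (4376564 to 4382087) measured 2284, 2172 and 2203 FPKM in GEN, 2311, 2361 and 2418 FPKM in LPS, and 2650.4, 2691 and 6515 FPKM in CON. ENSGALG00000001634 on chromosome 27 (6855155 to 6857164) measured 1666, 1948 and 1814 FPKM in GEN, 1888, 1849 and 1857 FPKM in LPS, and 1987, 2184 and 6299 FPKM in CON. For the gene on chromosome 26 the 3 groups did not overlap, though GEN and LPS did under fragment-sum scaling, while on chromosome 27 the GEN and LPS ranges overlapped. ENSGALG00000015195 on chromosome 28 (3300429 to 3302247) measured 1916, 1849.9 and 1960.4 FPKM in GEN, 2279, 2149 and 2074 FPKM in LPS, and 2175, 2397 and 7640.3 FPKM in CON. ENSGALG00000041323 on chromosome 30 (137049 to 137805) measured 329.7, 299 and 299 FPKM in GEN, 364, 336 and 333 FPKM in LPS, and 405, 367 and 1258 FPKM in CON. Both had their lowest level in GEN, and CON 3 stood at 3.64 and 3.68 times the mean of the other 8 libraries.

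ENSGALG00000052338 on chromosome 32 (247282 to 248146) measured 890.3, 852 and 759 FPKM in GEN, 1126, 809 and 865 FPKM in LPS, and 1049, 846 and 1565 FPKM in CON, so its groups overlapped. It lies inside the span of ENSGALG00000031325 on the same strand, at 159.5 to 320.3 FPKM. The top gene of chromosome 31, ENSGALG00000050001 (2226106 to 2232449, minus strand), differed from the other 7 in that CON 3 did not stand out. It measured 219, 358 and 222 FPKM in GEN, 342, 238 and 268 FPKM in LPS, and 528, 450.4 and 428 FPKM in CON. All CON libraries lay above all others on this scale. Under fragment-sum scaling CON 3 was at 328, below GEN 2 at 388 and LPS 1 at 353, so the groups overlapped. The log2 fold change was -0.85 (SE 0.23, limma adjusted p = 0.452) in GEN vs CON and -0.74 (SE 0.23, limma adjusted p = 0.637) in LPS vs CON. Without CON 3 these were -0.91 (SE 0.23, limma adjusted p = 0.234) and -0.80 (SE 0.23, limma adjusted p = 0.721). Quantile normalization gave -0.54 in GEN vs CON. Under fragment-sum scaling CON 3 was 0.958 times the mean of the other 8 libraries for this gene and 1.28 to 3.30 times for the other 7. None of the 8 genes passed the test in any comparison, with or without CON 3.

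The share of all expression held by the 1397 genes was lowest in GEN. They held 14.3%, 14.0% and 14.3% of the summed FPKM in GEN, 15.5%, 14.7% and 14.9% in LPS, and 15.2%, 15% and 18.3% in CON. The GEN range lay below the LPS and CON ranges, whereas LPS and CON overlapped. The mean ± SD over 3 libraries was 14.2% ± 0.157 for GEN, 15% ± 0.412 for LPS and 16.2% ± 1.86 for CON. Over the 2 CON libraries without CON 3 it was 15.1% ± 0.118. As a share of fragments, which weights long genes more, the means were 11.7%, 12.4% and 13.3% in GEN, LPS and CON. Without CON 3 the CON mean of that share was 12.5%. Mitochondrial genes held more of the summed FPKM in every GEN library than in LPS, CON 1 or CON 2. With mitochondrial genes left out of the total, the shares were still 14.9%, 14.6% and 14.8% in GEN, 15.9%, 15.2% and 15.3% in LPS, and 15.6%, 15.5% and 19.5% in CON. Chromosomes 1 to 5 held 35.3% ± 0.175 in GEN, 35.2% ± 0.284 in LPS and 35.5% ± 0.0305 in CON without CON 3. GEN and LPS overlapped there. On chromosomes 11 to 24 the means were 27.6% in GEN, 28.2% in LPS and 28.1% in CON without CON 3. Without CON 3 the GEN mean was thus the lowest there too, with overlapping ranges. With CON 3 the CON means were 27.3% there and 34.2% on chromosomes 1 to 5, the lowest of the groups on both.

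**Figure D1:**
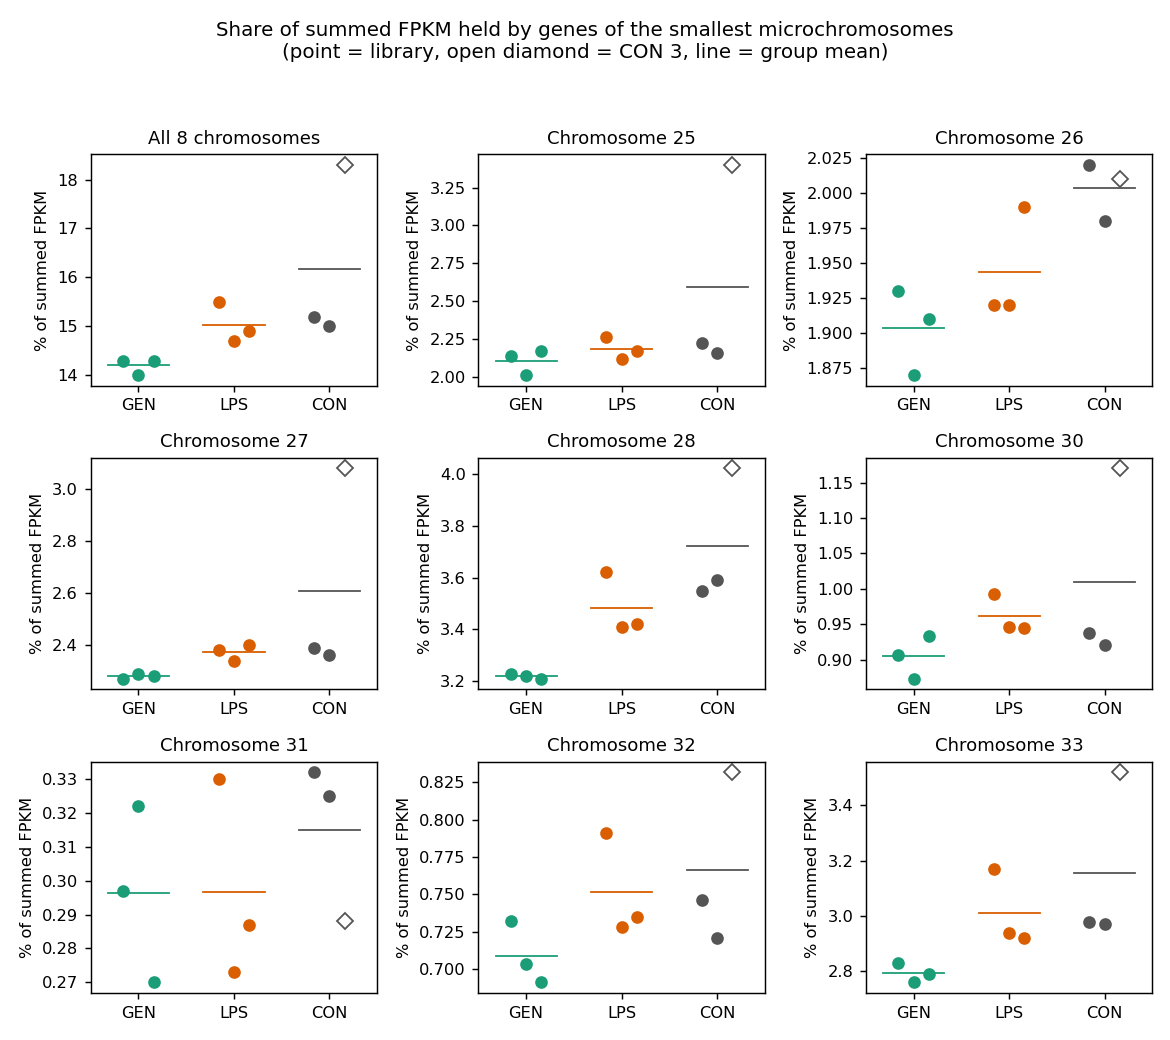
Percent of the summed FPKM held by the genes of all 8 chromosomes and of each chromosome (y axis, not starting at 0 and with its own range in each panel) in GEN, LPS and CON, with a point for each library, an open diamond for CON 3 and a line at the group mean. For all 8 chromosomes the GEN libraries lie at 14.0% to 14.3%, below the 14.7% to 15.5% of LPS, and CON 3 is highest at 18.3%.

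By chromosome, the GEN mean share was below the LPS mean on 8 of 8, and on 4 of 8 every GEN library was below every LPS library. These 4 were chromosomes 27, 28, 30 and 33. Chromosome 28 held 3.23%, 3.22% and 3.21% of the summed FPKM in GEN, 3.62%, 3.41% and 3.42% in LPS, and 3.55%, 3.59% and 4.02% in CON. Its GEN libraries agreed closely and lay below all others. Chromosome 31 held 0.297%, 0.322% and 0.270% in GEN, 0.330%, 0.273% and 0.287% in LPS, and 0.332%, 0.325% and 0.288% in CON. Its group ranges overlapped, and CON 3 was the lowest CON library. The 10 most abundant of the 1397 genes held 3.43% to 3.55% in GEN, 3.69% to 3.78% in LPS, and 3.78%, 4.01% and 6.67% in CON 1, 2 and 3. Without those 10 the shares were 10.5% to 10.9% in GEN, 10.9% to 11.7% in LPS, and 11.4%, 11% and 11.7% in CON 1, 2 and 3. The 10 were ranked by their mean over all 9 libraries, CON 3 included. That choice favours genes high in CON 3, so how far its excess is confined to a few genes cannot be read from these shares.

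In GEN vs LPS, the comparison of genistein with lipopolysaccharide against lipopolysaccharide alone, the microchromosome genes were on balance slightly lower in GEN. Their median log2 fold change, on the log2(FPKM + 1) scale, was -0.10 against -0.01 over the other genes tested, and 956 of 1397 were lower in GEN (68.4%), against 51.3% of the others. These 2 groups do not include CON 3. The medians were -0.14 on chromosome 32, -0.11 on 27, -0.10 on 30 and 33, -0.09 on 25 and 28, -0.08 on 26 and -0.06 on 31. Chromosomes 11 to 24 gave -0.05 and chromosomes 1 to 5 gave 0.01. Leaving out LPS 1 gave -0.06 for the 1397 genes, and leaving out any other single library gave -0.12 to -0.07.

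Of the 1397 genes, 0 passed a limma adjusted p of 0.05 in GEN vs LPS, where 0.0% of all genes tested were called, and a limma-voom fit of the recovered fragments gave 0 as well. At an unadjusted p under 0.05, 10 were higher and 32 lower in GEN, where 1.74% and 1.5% of all genes tested were. The 32 became 18 without GEN 2, 16 without GEN 3, 13 without LPS 1 and 180 without CON 3, whose removal changes only the estimated spread. The 10 became 4 without GEN 3, 5 without LPS 1 and 40 without CON 3. Without CON 3 the backgrounds were 6.32% higher and 7.37% lower. In 251 of the 1397 genes (18.0%) every GEN library lay below every LPS library, where 11.3% of all genes tested did so. In 56 genes (4.01%) every GEN library lay above, where 8.91% of all genes did so. The 251 became 451 without GEN 1 and 395 without LPS 2. The 56 became 117 without GEN 1, 123 without GEN 2, 89 without LPS 1, 113 without LPS 2 and 88 without LPS 3. Fewer libraries raise such counts by construction. In all 3 comparisons, backgrounds were counted only with all 9 libraries and without CON 3. On chromosome 32 the GEN libraries lay below in 20 of 68 genes (29.4%) and above in 7 (10.3%). On chromosome 31 they lay below in 6 of 64 (9.38%) and above in 2 (3.12%).

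Genes lower in GEN than in LPS with the lowest p were the same 2 genes that were higher in LPS than in CON, 2 comparisons that share the LPS libraries. ENSGALG00000024272 on chromosome 25 (3296971 to 3298411, minus strand) measured 6.81, 15.2 and 18.3 FPKM in GEN, 50.7, 36.6 and 44.6 FPKM in LPS, and 13.1, 19.9 and 5.13 FPKM in CON. The LPS libraries stood above all 6 others, while GEN and CON overlapped. Its log2 fold change was -1.73 (SE 0.47, limma adjusted p = 1.0) in GEN vs LPS and 1.87 (SE 0.47, limma adjusted p = 0.637) in LPS vs CON. Without CON 3 it was -1.73 (SE 0.32, limma adjusted p = 0.238) and 1.38 (SE 0.36, limma adjusted p = 0.701). ENSGALG00000039750 overlaps it on the plus strand and measured at most 0.300 FPKM in any library.

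ENSGALG00000050637 on chromosome 32 (463888 to 464961, plus strand) was a low gene of the same shape. It measured 1.13, 0.787 and 0.855 FPKM in GEN, 3.41, 2.36 and 2.14 FPKM in LPS, and 0.996, 0.683 and 0.356 FPKM in CON, from 6 to 98 fragments. The LPS libraries again stood above the 6 others. Outside LPS it reached 1 FPKM only in GEN 1, so it met the rule for the set only through its LPS values. Its excess in LPS is therefore a description only. The log2 fold change was -0.91 (SE 0.21, limma adjusted p = 1.0) in GEN vs LPS and 1.12 (SE 0.21, limma adjusted p = 0.637) in LPS vs CON. Its size depends on the pseudocount: with 0.1 it was -1.40 and 1.88, and in limma-voom -1.46 and 2.17. Without CON 3 the log2 fold change was -0.91 (SE 0.18, limma adjusted p = 0.238) in GEN vs LPS and 0.97 (SE 0.20, limma adjusted p = 0.562) in LPS vs CON.

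Of the genes higher in GEN than in LPS, ENSGALG00000002781 on chromosome 27 (7970099 to 7990457, minus strand) measured 28, 28.8 and 30.7 FPKM in GEN, 15.7, 23.7 and 18.8 FPKM in LPS, and 19.4, 22.6 and 17.3 FPKM in CON. Its GEN libraries lay above all others, with a log2 fold change of 0.58 (SE 0.17, limma adjusted p = 1.0) in GEN vs LPS. ENSGALG00000000791 on chromosome 26 (2384160 to 2390966, minus strand) measured 54.6, 46.4 and 43.1 FPKM in GEN, 34.6, 37.3 and 36.0 FPKM in LPS, and 41.2, 47.5 and 40.4 FPKM in CON. GEN and LPS did not overlap, GEN and CON did, and the log2 fold change in GEN vs LPS was 0.40 (SE 0.13, limma adjusted p = 1.0). Its neighbour ENSGALG00000000816 overlaps it on the plus strand at 2.02 to 5.38 FPKM.

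**Figure D2:**
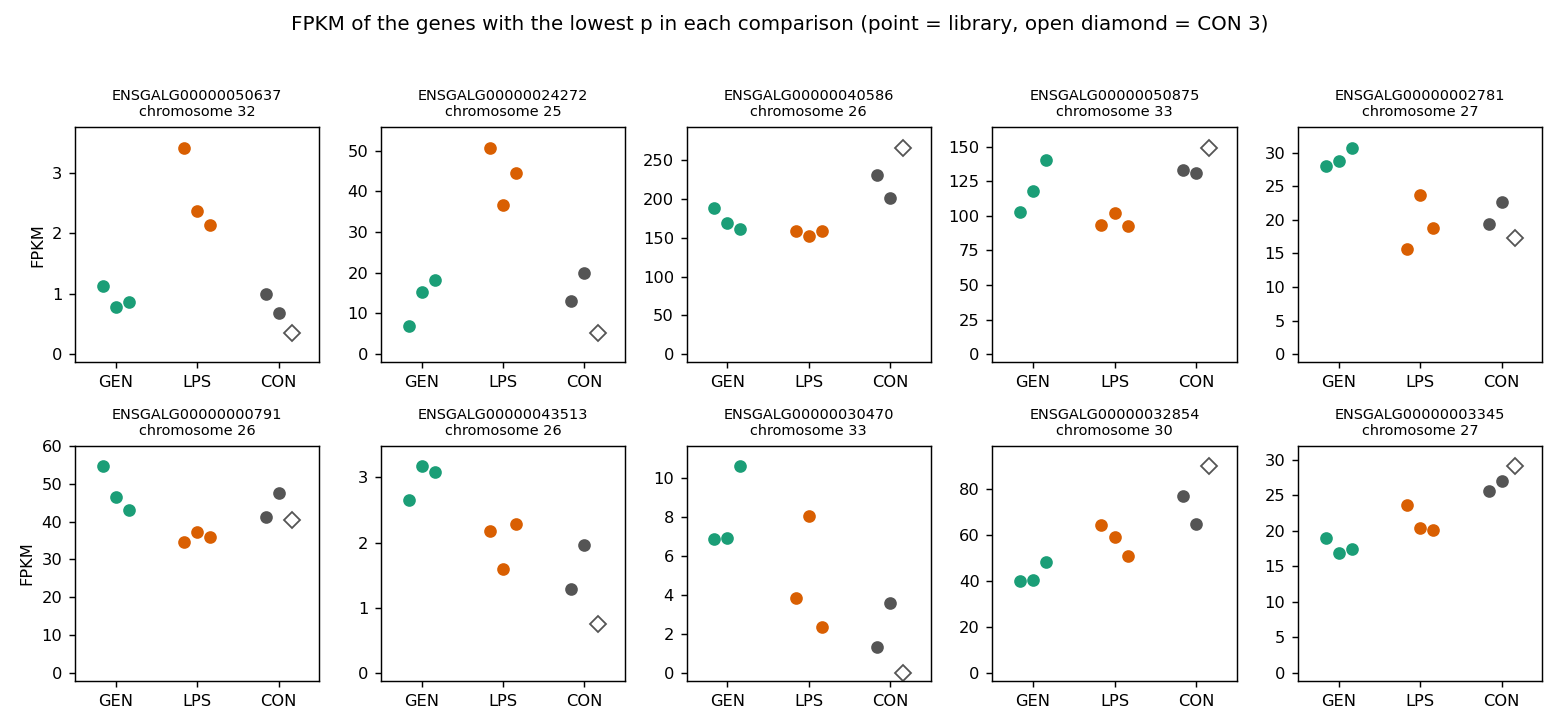
FPKM (y axis, from 0, own range in each panel) in GEN, LPS and CON of the 10 genes with the lowest p in the 3 comparisons, with a point for each library and an open diamond for CON 3. The LPS libraries of ENSGALG00000024272, at 36.6 to 50.7 FPKM, lie above all GEN and CON libraries, and the GEN libraries of ENSGALG00000003345 lie below all LPS and CON libraries.

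In GEN vs CON, which sets lipopolysaccharide with genistein against the basic diet, the genes were again lower on balance in GEN, with and without CON 3. The median log2 fold change was -0.21 against 0.03 over the other genes tested, and without CON 3 it was -0.11 against -0.01. In all 9 libraries 69.8% of the 1397 genes were lower in GEN, against 46.8% of the other genes, and without CON 3 64.3% were, against 51.6%. Under fragment-sum scaling the medians were -0.03 and 0.20, so the size of the members' own median rests on the scale of CON 3. Its distance from the other genes was -0.24 and -0.23 on the 2 scales. Fragment-sum scaling shifts both sets of genes alike, so it could hardly change that distance. Quantile normalization gave a distance of -0.16. With CON 3 the medians ran from -0.31 on chromosome 30 to -0.08 on chromosome 26. Without it they lay closer together, from -0.12 on chromosomes 25, 28 and 31 to -0.09 on chromosome 26. Chromosome 26 moved least when CON 3 was left out, and chromosome 30 most. The comparison shares its GEN libraries with GEN vs LPS.

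Here too 0 of the 1397 genes passed a limma adjusted p of 0.05, where 0.0% of all genes tested did, and the lowest adjusted p among them was 0.438 (0.136 without CON 3). A limma-voom fit of the fragments gave 0. At an unadjusted p under 0.05, 19 genes were higher and 158 lower in GEN, with backgrounds of 4.68% and 6.12%, and without CON 3 the counts were 56 and 222, with backgrounds of 6.57% and 9.36%. The 158 became 100 without GEN 1, 64 without GEN 2, 58 without GEN 3, 98 without LPS 3 and 298 without CON 2. The 19 became 12 without GEN 3, 30 without CON 1 and 32 without CON 2. Fragment-sum scaling gave 41 higher and 72 lower, and limma-voom 41 and 66, with no background counted under either. That scaling also moved the median of all genes tested from 0.01 to 0.18. In 313 genes (22.4%) every GEN library lay below every CON library, where 12.3% of all genes tested did so. Without CON 3 these were 431 (30.9%), against 20.4%. In 34 genes (2.43%) every GEN library lay above, where 8.83% of all genes did so, and without CON 3 in 133 (9.52%), against 15.6%. The 34 became 65, 72 and 57 without GEN 1, 2 or 3, and 63 and 72 without CON 1 or 2. Fragment-sum scaling gave 93 genes above and 165 below, again with no background counted.

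ENSGALG00000032854 on chromosome 30 (397120 to 399963, minus strand) measured 39.8, 40.5 and 48.0 FPKM in GEN, 64.3, 59.1 and 50.6 FPKM in LPS, and 77.0, 64.6 and 89.8 FPKM in CON. GEN lay below LPS and CON, and LPS below CON except under fragment-sum scaling. The log2 fold change in GEN vs CON was -0.83 (SE 0.16, limma adjusted p = 0.438), and without CON 3 it was -0.71 (SE 0.13, limma adjusted p = 0.174). ENSGALG00000032489, on the same strand, spans it and measured 53.2 to 169.9 FPKM, so the counts of the pair are uncertain. ENSGALG00000003345 on chromosome 27 (7678129 to 7689239, minus strand) measured 19.0, 16.9 and 17.5 FPKM in GEN, 23.7, 20.4 and 20.2 FPKM in LPS, and 25.6, 27.1 and 29.1 FPKM in CON. GEN again lay below LPS and CON, and LPS below CON except under fragment-sum scaling. The log2 fold change in GEN vs CON was -0.59 (SE 0.12, limma adjusted p = 0.44), or -0.54 (SE 0.10, limma adjusted p = 0.174) without CON 3, and -0.39 under fragment-sum scaling. Under library quality weights, an alternative that gave CON 3 a weight of 0.0491, both had a limma adjusted p of 0.0485 in GEN vs CON.

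With those weights 5 of the 1397 genes were called in GEN vs CON, among 54 of the 13506 genes tested. The share of the 1397 called was thus no higher than that of all genes tested. CON 1 had a weight of 2.66 and CON 2 of 1.11, so the CON side leans most on CON 1. The other 3 of the 5 fall outside the rule for named genes and are given because their number is small. ENSGALG00000042148 and ENSGALG00000039170, both on chromosome 26, had weighted log2 fold changes of 1.61 (limma adjusted p = 0.0278) and 0.98 (limma adjusted p = 0.0485). ENSGALG00000044631 on chromosome 27 had -1.43 (limma adjusted p = 0.0485).

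The genes higher in GEN than in CON with the lowest p were both low. ENSGALG00000043513 on chromosome 26 (47040 to 65837, minus strand) measured 2.66, 3.17 and 3.08 FPKM in GEN, 2.17, 1.59 and 2.29 FPKM in LPS, and 1.28, 1.97 and 0.746 FPKM in CON. GEN lay above both other groups, with a log2 fold change in GEN vs CON of 0.80 (SE 0.22, limma adjusted p = 0.452), or 1.43 in limma-voom. Without CON 3 it was 0.61 (SE 0.18, limma adjusted p = 0.246). ENSGALG00000030470 on chromosome 33 (6534155 to 6534222, minus strand) is 68 bases long and rests on 10, 10 and 18 fragments in GEN, 7, 13 and 4 in LPS, and 2, 6 and 0 in CON. It measured 6.88, 6.91 and 10.6 FPKM in GEN, 3.85, 8.07 and 2.33 FPKM in LPS, and 1.31, 3.59 and 0 FPKM in CON. Its log2 fold change in GEN vs CON was 2.03 (SE 0.55, limma adjusted p = 0.452), or 1.46 (SE 0.44, limma adjusted p = 0.246) without CON 3. The gene lies inside ENSGALG00000047410 on the same strand, at 407 to 701 FPKM, so the fragments of the pair cannot be told apart.

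In LPS vs CON, which asks what lipopolysaccharide alone changed, the difference of the microchromosome genes rested on CON 3. Their median log2 fold change was -0.13 against 0.01 over the other genes tested, with 64.1% lower in LPS, against 48.2% of the others. Under fragment-sum scaling it was 0.03 against 0.17, so the sign depends on the scale of CON 3. Without CON 3 it was -0.01 against -0.01, with 51.8% lower in LPS, against 51.5%. On chromosomes 30 and 32 the medians were -0.23 and -0.22 with CON 3, and 0.00 and 0.02 without it. Chromosome 26 gave -0.01 and -0.02.

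No gene of the 1397 passed a limma adjusted p of 0.05 in LPS vs CON, 0 in all, where 0.0% of all genes tested did, and a limma-voom fit of the fragments gave 0. At an unadjusted p under 0.05, 22 were higher and 35 lower in LPS, with backgrounds of 2.45% and 2.07%, and without CON 3 the counts were 38 and 44, with backgrounds of 2.67% and 3.15%. The 35 became 14 without LPS 2, 18 without LPS 3, 101 without CON 1, 109 without CON 2, 22 without GEN 1 and 23 without GEN 3. The 22 became 12 without GEN 1, 14 without GEN 2, 44 without CON 1 and 37 without CON 2. The balance turned round with 39 higher and 14 lower under fragment-sum scaling, and with 40 and 12 in limma-voom. Fragment-sum scaling also moved the median of all genes tested from 0.0 to 0.16, and no background was counted under either setting. The LPS and CON ranges did not overlap in 48 genes higher and 98 lower in LPS, where 5.47% and 6.76% of all genes tested did so. Without CON 3 these were 136 and 158, against 9.68% and 12.4%. The 48 became 91 and 87 without LPS 1 or 2, and 104 and 87 without CON 1 or 2. The 98 became 269 without LPS 1, 212 without CON 1 and 234 without CON 2. Here too the balance turned round under fragment-sum scaling, with 95 higher and 43 lower, again with no background counted.

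Besides the 2 genes above that were higher in LPS, ENSGALG00000040586 on chromosome 26 (526440 to 534597, plus strand) was among the lower ones. It measured 189, 169 and 162 FPKM in GEN, 159, 153 and 159 FPKM in LPS, and 231, 201 and 266 FPKM in CON. CON lay above both other groups, and the log2 fold change in LPS vs CON was -0.55 (SE 0.14, limma adjusted p = 0.637), or -0.45 (SE 0.09, limma adjusted p = 0.549) without CON 3 and -0.28 with quantile normalization. ENSGALG00000050875 on chromosome 33 (7212689 to 7217376, plus strand) measured 103, 118 and 140 FPKM in GEN, 93.5, 102 and 92.5 FPKM in LPS, and 133, 131 and 149 FPKM in CON. LPS and CON did not overlap, and the log2 fold change in LPS vs CON was -0.51 (SE 0.14, limma adjusted p = 0.637), or -0.46 (SE 0.12, limma adjusted p = 0.701) without CON 3. It was -0.33 under fragment-sum scaling and in limma-voom, and -0.29 with quantile normalization. The gene overlaps ENSGALG00000033404 on the same strand, at 8.69 to 14.9 FPKM. No 2 of the named genes lay within 50 kb of each other.

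The 1397 genes were also placed library by library. The measure is each gene's difference from its mean over the libraries other than CON 3, as the median over the 1397 genes minus that over the other genes tested, on the log2 scale. It was -0.02, -0.10 and -0.06 in GEN 1, 2 and 3, and 0.09, 0.00 and 0.01 in LPS 1, 2 and 3. In CON 1, 2 and 3 it was 0.05, 0.02 and 0.45. All GEN libraries lay below all LPS and CON libraries, GEN 2 farthest, while LPS 1 was the highest library apart from CON 3. Within GEN and within LPS the libraries differed by 0.08 and 0.10, about as much as the groups did.

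**Figure D3:**
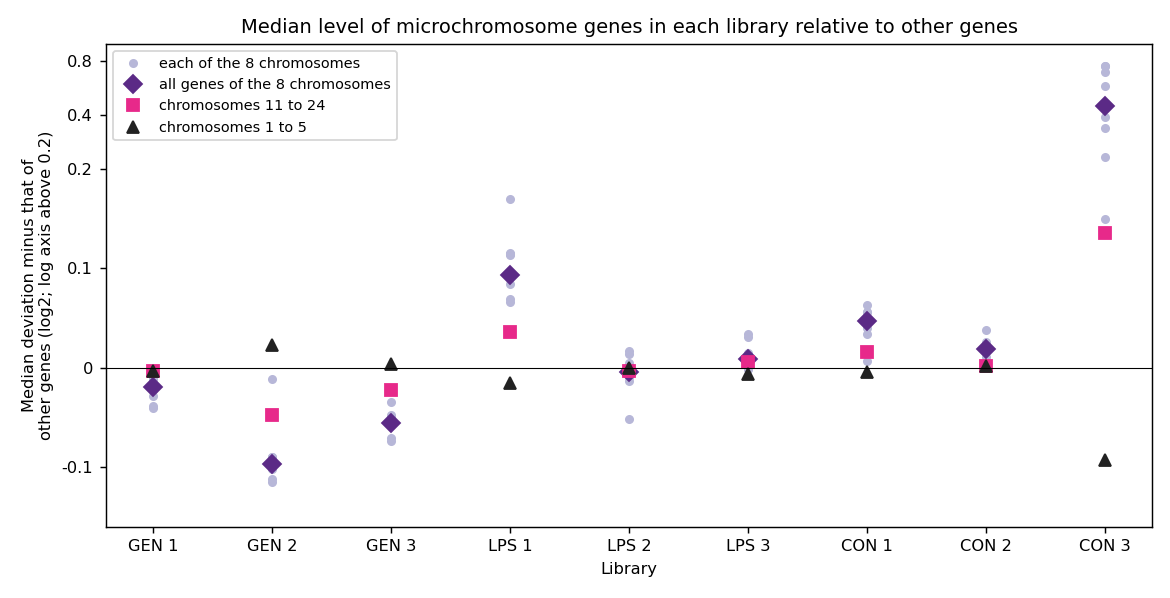
Median log2(FPKM + 1) deviation of microchromosome genes in each library minus that of the other genes tested (y axis, linear up to 0.2 and a log axis above), for each of the 8 chromosomes, for all their genes together, and for chromosomes 11 to 24 and 1 to 5. The 8 chromosomes together lie at -0.10 to -0.02 in GEN and at 0.45 in CON 3.

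Across the 32 numbered chromosomes, the median difference in GEN vs LPS followed chromosome size. Spearman's rho with size, taken as the end of the last gene, was 0.88, a description over chromosomes that share the same 9 libraries. Among the 8 chromosomes with the lowest medians, 6 were of the set described here and the other two were 16 and 22, which are also small. For GEN vs CON rho was 0.91, and 0.81 without CON 3, with 7 of the 8 lowest from the set in either case. For LPS vs CON rho was 0.78 with CON 3 and -0.16 without it. With gene density, predicted genes included, rho was -0.83 in GEN vs LPS, -0.91 in GEN vs CON and -0.83 in LPS vs CON. Without CON 3 it was -0.82 in GEN vs CON and 0.07 in LPS vs CON. Size and gene density cannot be told apart here. The lower medians thus formed the end of a gradient that also took in other small chromosomes.

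**Figure D4:**
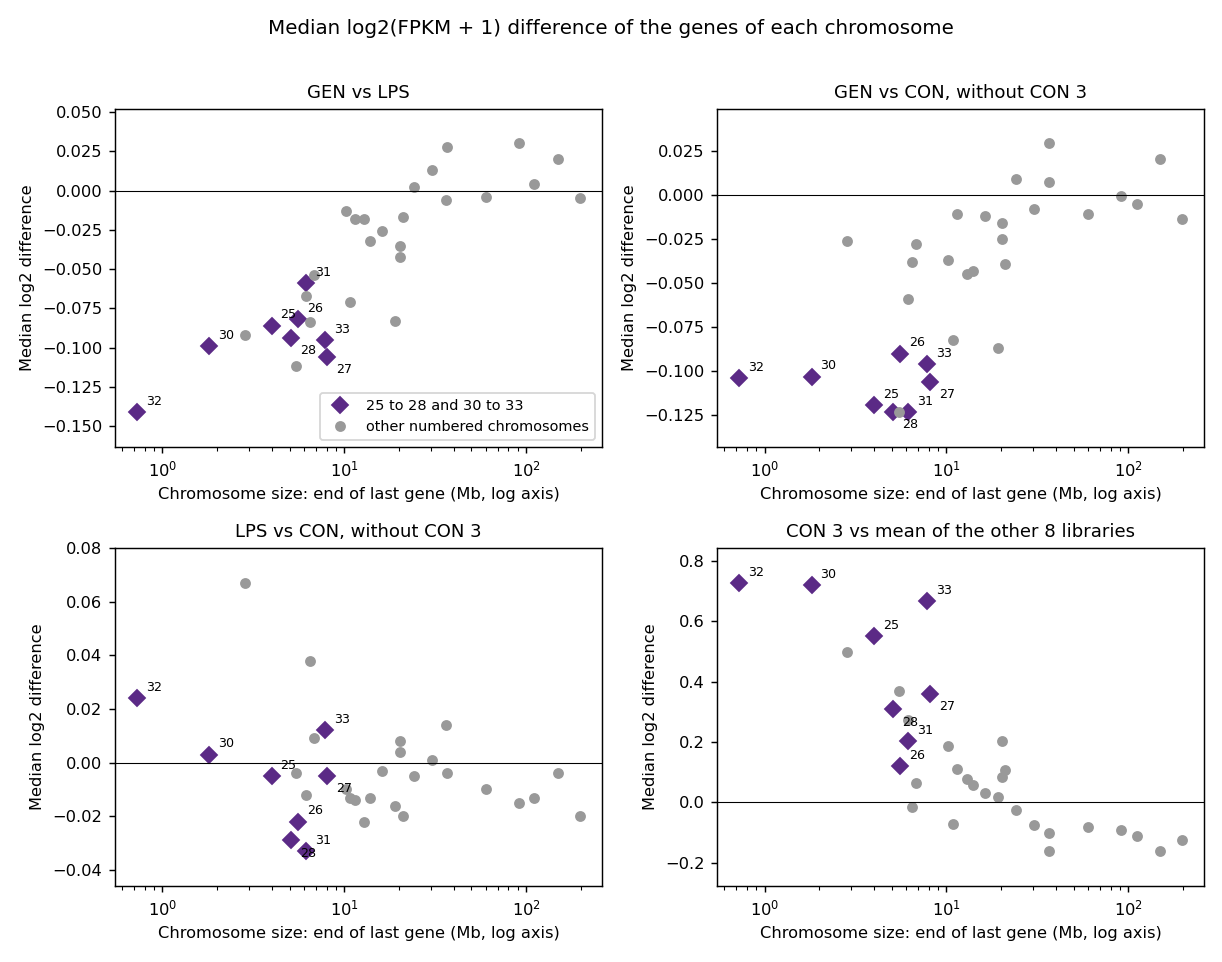
Median log2(FPKM + 1) difference of the genes of each numbered chromosome (y axis, own range in each panel) against chromosome size in Mb (log axis), for GEN vs LPS, GEN vs CON and LPS vs CON without CON 3, and for CON 3 against the mean of the other libraries. The 8 chromosomes (diamonds) lie at -0.14 to -0.06 in GEN vs LPS and, without CON 3, at -0.03 to 0.02 in LPS vs CON.

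The lower median in GEN vs LPS was present in every class of gene length and level. The median log2 fold change was -0.12 for the 274 microchromosome genes under 1000 bases, against -0.01 for other genes of that length. It was -0.11 against -0.04 from 1000 to 2000 bases, -0.08 against 0.00 from 2000 to 4000 bases, and -0.09 against 0.04 over 4000 bases. By mean level it was -0.03 against 0.01 under 5 FPKM, -0.09 against 0.01 from 5 to 20 FPKM, -0.11 against -0.02 from 20 to 100 FPKM, and -0.16 against -0.09 over 100 FPKM.

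**Figure D5:**
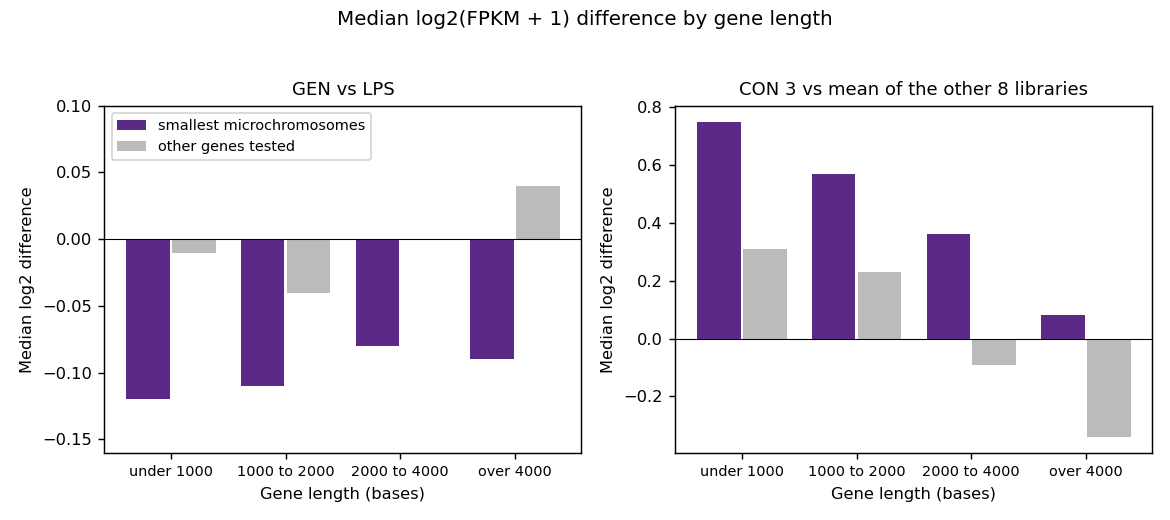
Median log2(FPKM + 1) difference (y axis, own range in each panel, bars from 0) of the microchromosome genes and of the other genes tested, in 4 classes of gene length in bases, for GEN vs LPS and for CON 3 against the mean of the other libraries. In CON 3 both sets decline with length, on the deposited scale, with 0.75 and 0.31 under 1000 bases and 0.08 and -0.34 over 4000 bases.

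In CON 3 the microchromosome genes stood higher than other genes, each set against its mean over the other 8 libraries. The median log2 difference was 0.42 (interquartile range -0.15 to 1.00) on the deposited scale, and -0.03 over the other genes tested. Under fragment-sum scaling it was 0.04 and -0.40, so the level of either set rests on the scale of CON 3. The gap between them was 0.45 and 0.44, but 1 factor per library shifts both sets alike, so this scaling could hardly change it. In 759 of the 1397 genes (54.3%) CON 3 was the highest library, against 33.7% of the others, and in 269 (19.3%) it was the lowest, against 37.1%. Under fragment-sum scaling it was the highest in 518 (37.1%), against 17.4%, and the lowest in 454 (32.5%), against 54.3%. On the deposited scale the median was 0.73 on chromosome 32, 0.72 on 30, 0.67 on 33, 0.55 on 25, 0.36 on 27, 0.31 on 28, 0.20 on 31 and 0.12 on 26. Under fragment-sum scaling it was -0.04 on 27, -0.09 on 28, -0.16 on 31 and -0.24 on 26, and above 0 on the other four. Chromosomes 16 and 22, which are outside the set, gave 0.50 and 0.37 on the deposited scale, above 27, 28, 31 and 26. Over the 32 numbered chromosomes Spearman's rho of the CON 3 median was -0.87 with size and 0.89 with gene density. The excess was thus not particular to the set. Chromosomes 30 and 26 differed most in the lower tail, with 2 of 105 and 25 of 222 genes more than 1 log2 unit lower. In CON 3 short genes were higher than long ones both on and off these chromosomes, and the microchromosome genes exceeded other genes of like length by 0.35 to 0.45. Among genes of like span on the chromosome the excess was 0.25 to 0.28. For genes averaging over 100 FPKM, by a mean that includes CON 3, the median was 0.97 on these chromosomes and 0.58 off them. With 1 library, CON 3 gives values with no replicate check.

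Single genes in CON 3 moved both ways. ENSGALG00000041592 on chromosome 33 (7007292 to 7016199, plus strand) measured 30.1, 25 and 31 FPKM in GEN, 30.2, 27.9 and 25.9 FPKM in LPS, and 27.3, 28.4 and 167 FPKM in CON. It was level in 8 libraries and 5.93 times their mean in CON 3, or 4.34 times under fragment-sum scaling. ENSGALG00000051271 on chromosome 33 (3044444 to 3046834, minus strand) was less even, at 2.34, 15.1 and 10.7 FPKM in GEN, 7.13, 12.9 and 5.39 FPKM in LPS, and 13.6, 12.1 and 64.2 FPKM in CON. ENSGALG00000000470 on chromosome 28 (729616 to 757180, minus strand) went the other way, at 98.7, 93.6 and 76.0 FPKM in GEN, 94.4, 90.6 and 89.3 FPKM in LPS, and 114, 99.2 and 5.89 FPKM in CON. The last value rests on 345 fragments, against 7099 to 9569 in the other libraries. ENSGALG00000042137 on chromosome 26 (2201344 to 2214140, minus strand) measured 64.9, 65.3 and 61.9 FPKM in GEN, 69.8, 71.9 and 76.8 FPKM in LPS, and 76.6, 74.8 and 5.26 FPKM in CON. These 4 genes were picked for their value in CON 3 and are a description only.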

How the data were processed

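RNA of 9 thymus samples was extracted with Trizol and made into TruSeq libraries, per the labels' protocols. The authors deposited FPKM values with gene positions and lengths. CASAVA 1.8, featureCounts 1.5.0-p3 and build GRCg6a are named in the submitters' processing notes. Not given in the sources used here are the aligner, annotation release, strand setting and handling of multiply matching fragments. FPKM times gene length fell on whole multiples of 1 step per library (100% within 0.01), which gave whole fragments and the authors' scaling total. Against the summed gene fragments this total came to 1.01 to 1.09 in 8 libraries and 0.767 in CON 3, which raises all FPKM of CON 3 by 1 factor. The table has 0 sample columns from outside the series.

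All 13506 genes reaching 1 FPKM in 3 or more libraries were fitted together on log2(FPKM + 1), with a pseudocount of 1, in limma 3.58.1 (R 4.3.3) with a mean-dependent prior variance. This scale understates fold changes of low genes. Two-sided p-values were adjusted by Benjamini-Hochberg over all genes fitted. Medians and shares over the members carry no test. The method was tested on simulated data with the same spread in every library and no outlying library such as CON 3. It therefore does not show how many changes could be found in these data.

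The members, lists and rules were chosen with earlier results of these data known. Named genes were the most abundant member per chromosome, the 2 higher and 2 lower members with the lowest p per comparison (mean of at least 1 FPKM, at least 10 fragments in at least 3 libraries), and the 2 highest and 2 lowest in CON 3 (mean of at least 5 FPKM). Lists by gene symbol could not be used. Other normalizations, filters, pseudocounts, weights, tests and left-out libraries were tried. Libraries of a group differed beyond counting error: chi-square per degree of freedom was 14.9 to 44.6 in pairs without CON 3. It was 281 for CON 1 with CON 3 and 280 for CON 2 with CON 3.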

Additional observations from a re-analysis of the deposited data

How the results depend on the processing

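No member passed an adjusted p of 0.05 in any comparison (0) under any alternative run, apart from library quality weights. Those gave 5 in GEN vs CON, where 54 of the 13506 genes tested were called. Scaling each library by its sum of fragments moved the median of all genes to 0.18 in GEN vs CON and 0.16 in LPS vs CON. The members' medians were then -0.03 and 0.03. Their difference from the other genes was -0.23 and -0.14, which 1 factor per library could hardly change, and quantile normalization gave -0.16 and -0.08. In CON 3 fragment-sum scaling gave the members a median of 0.04 in place of 0.42. Without a filter the members, then all 2437 genes, had medians of -0.02 in GEN vs LPS and -0.03 in GEN vs CON, with the same differences from other genes, since more genes near 0 enter. Leaving out 1 library gave medians of -0.12 to -0.06 in GEN vs LPS, -0.28 to -0.11 in GEN vs CON and -0.19 to -0.01 in LPS vs CON. The difference from other genes was then -0.11 to -0.06, -0.31 to -0.10 and -0.21 to 0.00. Under the replicate block the medians were -0.10, -0.21 and -0.13 with 0 calls. Same-numbered libraries correlated at -0.10 to 0.335, over 0.1 in 4 of 9 pairs, with 4 of 9 libraries closest to their own number, so the numbers were not taken to pair the samples.

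Shares of fragments were 11.7%, 12.4% and 13.3% in GEN, LPS and CON, or 12.5% in CON without CON 3. Shares without mitochondrial genes were 14.8% in GEN and 15.5% in LPS. Members under an unadjusted p of 0.05, with fragment-sum scaling and limma-voom, were 39 and 40 higher and 14 and 12 lower in LPS vs CON, and 41 and 41 higher and 72 and 66 lower in GEN vs CON. Leaving out 1 library gave 4 to 40 higher and 13 to 180 lower in GEN vs LPS, 12 to 56 and 58 to 298 in GEN vs CON, and 12 to 44 and 14 to 109 in LPS vs CON. Members whose groups do not overlap, which fewer libraries raise by construction, were then 71 to 123 higher and 288 to 451 lower in GEN vs LPS, 57 to 133 and 359 to 460 in GEN vs CON, and 71 to 136 and 132 to 269 in LPS vs CON. With fragment-sum scaling they were 93 higher and 165 lower in GEN vs CON. In LPS vs CON they were 95 and 43, where the main counts were 48 and 98. For all these counts a background was taken only with all 9 libraries and without CON 3. The 40 higher and 180 lower in GEN vs LPS came without CON 3, as 2.86% and 12.9% of the members. Of all genes tested, 6.32% and 7.37% were so placed. Of 398 values of named genes, 395 kept their direction and side of the threshold. Quantile normalization gave ENSGALG00000052338 a log2 fold change of 0.14 in GEN vs CON, and the cause was not tested. Depth limits genes such as ENSGALG00000030470, with 0 to 18 fragments.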
